A study of Macaca mulatta with 27 samples.

Results

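The genes SHH, PTCH1, GLI1, GLI2, GLI3, HHIP, SMO, BOC, and GAS1 of the Hedgehog pathway were taken by symbol from count tables of rhesus pluripotent stem cells (PSCs), and all 9 were present among 17967 gene symbols. Hedgehog ligands such as SHH bind the receptor PTCH1 with the help of the surface proteins BOC, CDON, and GAS1. Unbound PTCH1 keeps the membrane protein SMO inactive, and ligand binding releases SMO at the primary cilium, which turns the GLI transcription factors from repressors to activators. PTCH1, GLI1, and HHIP are transcribed in response to the signal in many tissues, and GLI3 acts mainly as a repressor when the signal is absent. In the embryo the pathway is best known for patterning the ventral neural tube and the limb.

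RNA was sequenced in bulk in 27 libraries from LyonES rhesus embryonic stem cells that carry a tauGFP transgene under the ubiquitous CAG promoter and a lentiviral STAT3-ERT2 transgene. The cells are LyonES-tGFP-(S3), a clonal line, so that every library, primed ones included, comes from 1 clone with both transgenes. The groups were 6 libraries of primed cells and 3 libraries for each of 7 protocols that the labels call naive, namely TL2i, TL-CDK8i, t2iLGöY, 4i/L/b, E-NHSM, NHSM-v, and LCDM (EPS). In TL2i, tamoxifen activates STAT3-ERT2 in the presence of LIF and of inhibitors of MEK and GSK3β. TL-CDK8i keeps tamoxifen and LIF and has an inhibitor of the kinases CDK8 and CDK19 in place of both others. The other protocols are published mixtures used without tamoxifen, and their composition is not given in the sources used here. Reprogrammed cells were passaged as single cells and primed cells in clumps, so protocol and passaging cannot be told apart. The labels do not say that libraries of a group came from separate cultures, and p-values then measure only the spread between these samples, which may be technical.

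Total counts ranged from 7111886 to 20760914 per library with a median of 12201171, and levels are given as CPM, the usual count scaled to a fixed library size, after TMM scaling. CPM does not correct for transcript length, so levels were compared between groups and not between genes. The 7 pluripotency markers summed to 5430 to 6130 CPM in primed libraries and 6290 to 6350 CPM in E-NHSM libraries. Their sum was 1510 to 2120 CPM in TL-CDK8i, 425 to 514 CPM in TL2i, and 429 to 454 CPM in LCDM (EPS) libraries. It was 186 to 196 CPM in t2iLGöY, 158 to 162 CPM in 4i/L/b, and 121 to 137 CPM in NHSM-v libraries, and NANOG was at 0 in all 3 NHSM-v and all 3 t2iLGöY libraries. SOX2 alone averaged 329 CPM in LCDM (EPS) and LIN28A 271 CPM in TL2i libraries, most of the sum in each. In bulk RNA, fewer cells of a type and less RNA per cell cannot be told apart.

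Reprogrammed cells other than E-NHSM cells held more RNA of the co-receptor BOC and of the transcription factor GLI3 than primed cells, and all 7 protocols held more of the co-receptor GAS1. GLI1, the member most often used as a readout of the signal, fell in 4 protocols and passed the test as higher in none, although some alternative fits called it higher in E-NHSM cells. In E-NHSM cells, 1 of the 9 members rose (GAS1) and 3 fell (GLI2, SMO, and BOC), where 11.1% of all genes tested rose, 15.1% fell, and 26.2% changed. In TL-CDK8i cells 3 rose and 3 fell, with 22.3% of all genes rising, 23.8% falling, and 46.1% changing. NHSM-v cells had 5 members higher and 2 lower, against 28% and 30.6% of all genes and 58.6% changed. In 4i/L/b cells these counts were also 5 and 2, against 26.6% and 29% of all genes and 55.6% changed.

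TL2i cells had the most, with 7 higher and 1 lower, where 25.6% of all genes rose, 25.2% fell, and 50.7% changed. In t2iLGöY cells 3 rose and 3 fell, against 27.1% and 27.2% of all genes and 54.3% changed. In LCDM (EPS) cells 5 rose and 0 fell, against 28.2% and 28.9% of all genes and 57.1% changed. The median log2 fold change of the members tested was 0.05 in E-NHSM, 0.46 in TL-CDK8i, 1.71 in NHSM-v, 1.51 in 4i/L/b, 3.61 in TL2i, 0.61 in t2iLGöY, and 2.00 in LCDM (EPS) cells. Over all genes tested it lay between -0.02 and 0.07. The TL2i median of the members is over 9, with SHH at 4.00, and the other medians are over 8 without SHH. The TL2i value is therefore not set against the same members. These tests were edgeR's quasi-likelihood test with Benjamini-Hochberg adjustment over all genes kept, called at an adjusted p under 0.05, and the 7 comparisons share the same 6 primed libraries. SHH was kept by the filter on low counts only in the TL2i comparison, where it is high. It counts as untested in the other 6, and its place among the 7 higher in TL2i cells is a description. HHIP, scarce in primed cells, passed that filter through protocol libraries rich in it. It is one of the risers counted for LCDM (EPS), TL2i, NHSM-v, and 4i/L/b cells. These 4 counts, and the medians that include HHIP, are therefore a description when set against all genes.

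**Figure D1:**
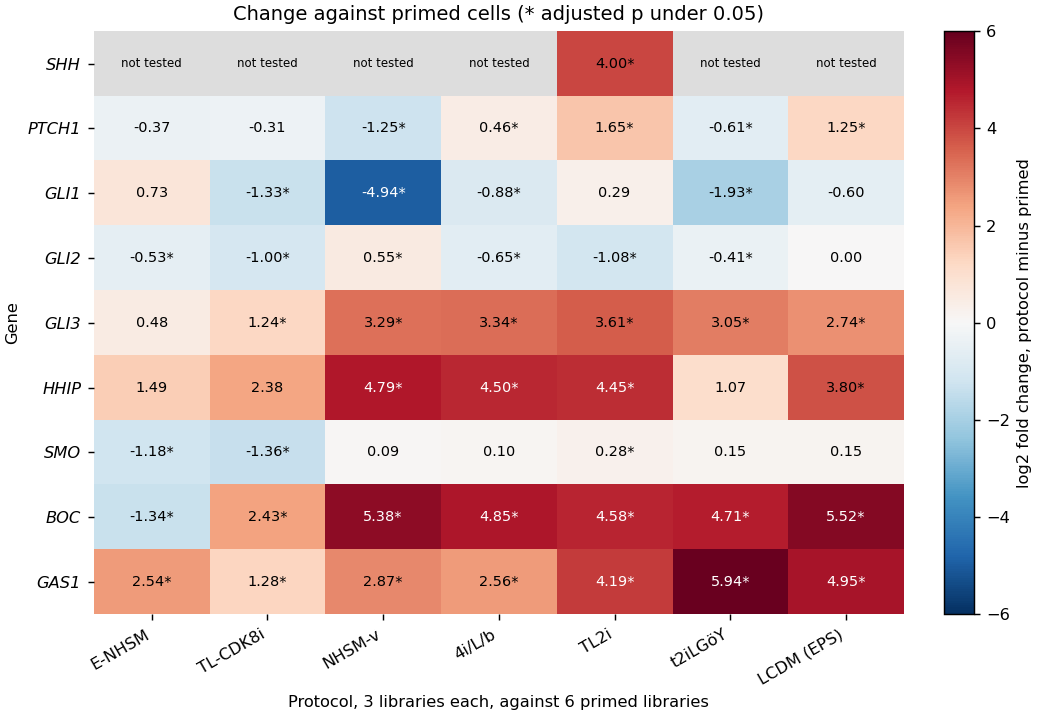
Log2 fold change of each gene (rows) in each protocol (columns, 3 libraries each) against 6 primed libraries, with the colour running from blue for lower to red for higher and asterisks for an adjusted p under 0.05. GAS1 is higher in all 7 columns, GLI3 and BOC in 6 of them, and GLI1 has 4 columns called lower.

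SHH, the ligand, was scarce in every group. The 6 primed libraries held 0 CPM in 4 cases, 0.67 CPM in library J1, and 0.971 CPM in library J2, the last resting on 9 reads. TL2i libraries held 2.50, 4.95, and 5.73 CPM, from 51, 85, and 81 reads. All 3 lay above every primed library and above every library of the other protocols.

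In TL2i cells SHH rose 16-fold over primed cells (log2 fold change 4.00, SE 1.22, 95% interval 1.37 to 6.63, adjusted p = 0.014, 3 against 6 libraries by edgeR). This call was lost without TL2i replicate 2 (log2 fold change 3.89, adjusted p = 0.058) or without replicate 3 (3.76, 0.067). Without primed J2 the log2 fold change was 5.04, and with no filter on low counts it was 4.00 (adjusted p = 0.014). SHH passed that filter only through the TL2i libraries, where it is high, so the call is a description. LCDM (EPS) libraries held 0.683, 0.707, and 0.974 CPM and 4i/L/b libraries 0.384, 1.09, and 0.577 CPM. In NHSM-v libraries the level was 0.113, 0, and 0.44 CPM, and in TL-CDK8i libraries 0.229, 0, and 0.387 CPM. These 4 groups overlapped the primed range.

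No SHH read was counted in any E-NHSM or t2iLGöY library, which allows up to 3 reads per library, or at most 0.167 CPM in E-NHSM and 0.217 CPM in t2iLGöY. These limits cover counting error only, and the primed level rests on J1 and J2 with the other 4 libraries at 0. In one fit of all 27 libraries SHH was called lower in both (adjusted p = 0.039 and 0.033 by edgeR). Without the filter on low counts it was not called in either (adjusted p = 0.2 and 0.15). In the order of mean levels, TL2i (4.39 ± 1.68 CPM, SD, n = 3) and its neighbour LCDM (EPS) (0.788 ± 0.162 CPM) were not called different in the common fit (adjusted p = 0.16).

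PTCH1, the receptor and also a gene induced by the signal, moved in opposite directions among the protocols. Primed libraries ranged from 31.3 to 57.4 CPM with a median of 44.3. TL2i libraries held 125, 147, and 142 CPM, and LCDM (EPS) libraries held 108, 103, and 103 CPM. Both groups lay wholly above the primed range. PTCH1 rose 3.13-fold in TL2i cells (log2 1.65, SE 0.16, adjusted p = 1.1e-06) and 2.38-fold in LCDM (EPS) cells (log2 1.25, SE 0.16, adjusted p = 1.1e-05).

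With 64.9, 63.1, and 59.4 CPM, PTCH1 in 4i/L/b cells stood just above the highest primed library. It rose there by 0.46 on the log2 scale (SE 0.17, adjusted p = 0.031), a call lost without any 1 of the 3 4i/L/b libraries (adjusted p from 0.059 to 0.094). NHSM-v libraries, at 22.7, 15.6, and 18.0 CPM, lay below every primed library, a fall by 1.25 on the log2 scale (SE 0.21, adjusted p = 0.00013). In t2iLGöY libraries the level was 26.6, 26.4, and 31.9 CPM, with 1 library inside the primed range, and PTCH1 fell by 0.61 (SE 0.20, adjusted p = 0.018). That call was lost without t2iLGöY replicate 1 or 2 (adjusted p = 0.068 and 0.067).

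PTCH1 in E-NHSM libraries was 29.7, 38.7, and 34.3 CPM, and in TL-CDK8i libraries 52.1, 29.9, and 28.0 CPM. Neither group passed the test against primed cells (adjusted p = 0.16 and 0.28), with 95% intervals of -0.76 to 0.02 and -0.80 to 0.17 on the log2 scale. TL-CDK8i replicate 1 stood apart from the other two. Without it PTCH1 was called lower in that protocol (log2 fold change -0.64, adjusted p = 0.042).

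HHIP, a membrane protein that binds Hedgehog ligands and limits them, had few reads in primed libraries, from 0 to 19 counts, or 0 to 1.68 CPM with a median of 0.388. It was 20.7, 11.9, and 17.1 CPM in NHSM-v, 13.1, 16.9, and 11.1 CPM in 4i/L/b, and 11.3, 16.8, and 10.4 CPM in TL2i libraries. All 9 of these libraries lay above the primed range, and the 3 groups overlapped one another. HHIP rose 27.7-fold in NHSM-v (adjusted p = 9.9e-05), 22.7-fold in 4i/L/b (0.00041), and 21.9-fold in TL2i cells (0.00049). The log2 intervals were wide, at 3.10 to 6.49, 2.71 to 6.30, and 2.68 to 6.22. Without primed K3, which held the most HHIP of the primed libraries, the log2 fold changes were 5.54, 5.24, and 5.16 in place of 4.79, 4.50, and 4.45. Among the primed libraries alone HHIP did not pass the filter on low counts. It entered these tests through protocol libraries where it is high, so its calls as higher are a description.

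In LCDM (EPS) libraries HHIP was 11, 8.72, and 4.39 CPM, a 13.9-fold rise with all 3 above the primed libraries (log2 3.80, SE 0.95, adjusted p = 0.0037), or 4.53 on the log2 scale without primed K3. TL-CDK8i libraries, at 4.47, 2.79, and 2.03 CPM, were also all above the primed range, but the difference did not pass the test (log2 2.38, 95% interval 0.00 to 4.76, adjusted p = 0.094). It was called higher in the common fit of 27 libraries (adjusted p = 0.0082) and without primed K3 (log2 3.11, adjusted p = 0.039). E-NHSM libraries, at 1.93, 0.723, and 2.15 CPM, overlapped it (log2 1.49, adjusted p = 0.44, or 2.22 without primed K3 and still not called). The t2iLGöY libraries differed among themselves, with 45, 0, and 6 reads, and gave 1.07 on the log2 scale (adjusted p = 0.58). Without t2iLGöY replicate 1 that value was -1.31.

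GLI1, a transcriptional activator whose own gene is a target of the pathway, did not follow PTCH1 and HHIP in every protocol. Primed libraries ranged from 7.71 to 15.0 CPM with a median of 9.49. NHSM-v libraries held 2, 0, and 8 reads, or 0.226, 0, and 0.704 CPM, far below any primed library. GLI1 fell by 4.94 on the log2 scale there (SE 0.71, 95% interval -6.46 to -3.43, adjusted p = 2.5e-05). Without NHSM-v replicate 3, which held 8 of these reads, it was -6.40.

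The t2iLGöY libraries held 2.93, 4.00, and 0.867 CPM of GLI1, and the TL-CDK8i libraries 4.24, 4.46, and 3.77 CPM. Both lay below the primed range, with falls by 1.93 (SE 0.51, adjusted p = 0.0047) and by 1.33 (SE 0.34, adjusted p = 0.0054) on the log2 scale. The t2iLGöY call was lost against the primed libraries of letter J alone (adjusted p = 0.052). In 4i/L/b libraries GLI1 was 6.44, 5.83, and 4.72 CPM, also all below the primed ones, and it fell by 0.88 (SE 0.32, adjusted p = 0.033). That call was lost when any of 5 single libraries was left out, the 3 of 4i/L/b and primed K2 and K3 (adjusted p from 0.06 to 0.14). It was also not called in the common fit (0.062), without the filter on low counts (0.057), or against letter J alone (0.16).

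LCDM (EPS) libraries, at 6.60, 7.97, and 5.47 CPM of GLI1, overlapped the lowest primed library (log2 -0.60, 95% interval -1.29 to 0.09, adjusted p = 0.13). TL2i libraries, at 12.0, 13.1, and 12.2 CPM, lay inside the primed range (log2 0.29, 95% interval -0.29 to 0.87, adjusted p = 0.39). E-NHSM libraries, at 18.4, 17.8, and 14.6 CPM, lay above it in 2 cases and inside it in 1. GLI1 in E-NHSM cells was 1.66-fold the primed level and missed the threshold (adjusted p = 0.052), and the call was made without primed J3 (0.043) or K2 (0.024). It was also made by DESeq2 (0.045), with upper-quartile scaling (0.033), and against letter J alone (0.028).

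**Figure D2:**
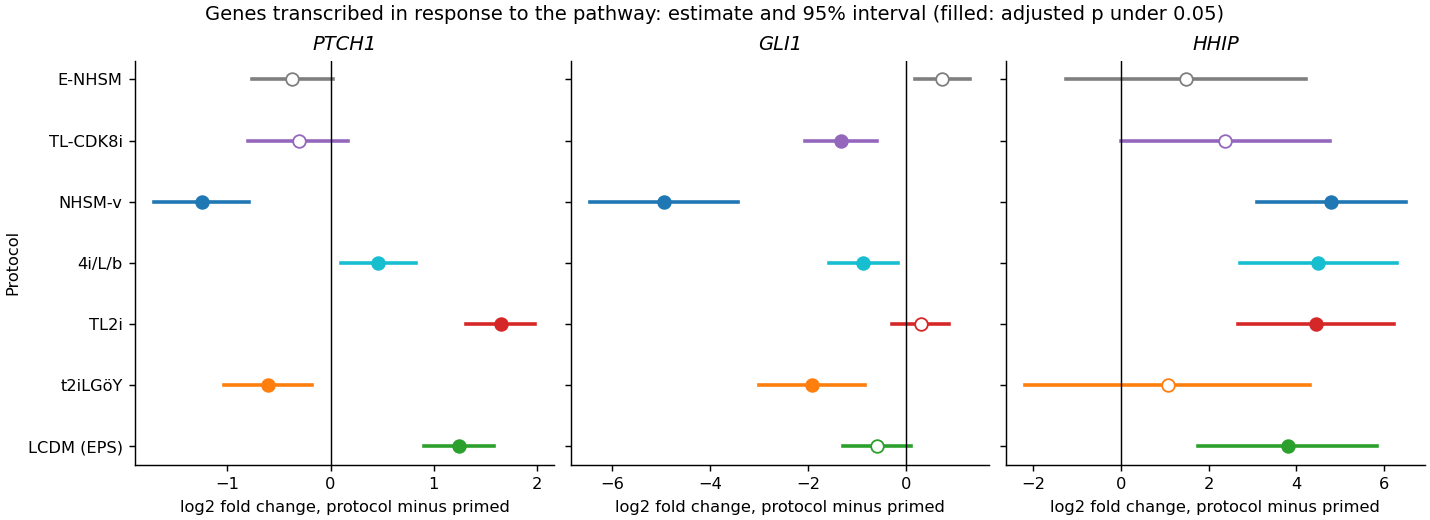
Log2 fold change against primed cells (horizontal axis) of PTCH1, GLI1, and HHIP in each protocol (rows), with bars for the 95% interval and filled points for an adjusted p under 0.05. NHSM-v cells have the lowest PTCH1 and GLI1 values, -1.25 and -4.94, and the highest HHIP value, 4.79, while TL2i cells have the highest PTCH1 value, 1.65, with GLI1 at 0.29.

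BOC, a co-receptor that binds SHH, showed some of the widest differences. It ranged from 5.39 to 17.8 CPM in primed libraries with a median of 7.36. LCDM (EPS) libraries held 377, 421, and 405 CPM, NHSM-v libraries 389, 362, and 365 CPM, and 4i/L/b libraries 255, 267, and 262 CPM. In t2iLGöY libraries it was 226, 262, and 193 CPM, and in TL2i libraries 202, 210, and 222 CPM. All 15 of these libraries exceeded the highest primed one by far.

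The folds over primed cells were 45.7 in LCDM (EPS) (adjusted p = 7.7e-10), 41.7 in NHSM-v (2.4e-10), 28.9 in 4i/L/b (5.6e-09), 26.2 in t2iLGöY (3.1e-09), and 23.9 in TL2i cells (1.3e-08). TL-CDK8i libraries were lower than these, at 60.6, 50.8, and 37.5 CPM, and still above the primed range, a 5.38-fold rise (log2 2.43, SE 0.32, adjusted p = 2.7e-05). E-NHSM libraries, at 4.24, 2.39, and 3.98 CPM, lay below it, a fall by 1.34 on the log2 scale (SE 0.47, adjusted p = 0.041). That call was lost without any 1 of the 3 E-NHSM libraries or without primed J1 or J2 (adjusted p from 0.07 to 0.17), and against the primed libraries of letter K alone it was -0.70 (adjusted p = 0.3). Primed J2 held 165 BOC reads, the most of the 6.

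GAS1, a co-receptor anchored to the membrane by a lipid, rose in every protocol. Primed libraries held 2.14 to 5.86 CPM with a median of 5.28. The t2iLGöY libraries were highest, at 262, 289, and 265 CPM, followed by LCDM (EPS) with 130, 137, and 151 CPM and TL2i with 86.6, 77.8, and 83.6 CPM. These 3 groups did not overlap one another, and each step in this order passed the test in the common fit (adjusted p = 0.00019 and 0.0016).

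GAS1 rose 61.4-fold in t2iLGöY (log2 5.94, SE 0.21, adjusted p = 1.2e-11), 30.8-fold in LCDM (EPS) (4.5e-10), and 18.2-fold in TL2i cells (9.5e-09). NHSM-v libraries held 35.6, 30.5, and 34.9 CPM, 4i/L/b libraries 29.4, 28.9, and 24.5 CPM, and E-NHSM libraries 29.7, 21.3, and 28.6 CPM. Their rises were 7.29-fold (1.1e-06), 5.91-fold (9.1e-06), and 5.83-fold (7.2e-06). The smallest rise, 2.42-fold, was in TL-CDK8i libraries, at 15.9, 10.6, and 7.73 CPM (log2 1.28, SE 0.41, adjusted p = 0.019), and it was not called without TL-CDK8i replicate 1 (0.98, adjusted p = 0.15) or replicate 2 (1.33, adjusted p = 0.053).

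SMO, which carries the signal across the membrane, fell in 2 protocols. Primed libraries ranged from 147 to 200 CPM with a median of 171. E-NHSM libraries held 71.9, 78.3, and 76.0 CPM and TL-CDK8i libraries 88.3, 64.6, and 52.8 CPM, all below every other library of the series. SMO fell by 1.18 on the log2 scale in E-NHSM cells (SE 0.12, adjusted p = 6.7e-07) and by 1.36 in TL-CDK8i cells (SE 0.16, adjusted p = 9.3e-06).

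Mean SMO levels of the other 5 protocols lay between 184 and 207 CPM, against 170 ± 21.4 CPM (SD, n = 6) in primed cells. TL2i libraries, at 190, 211, and 221 CPM, overlapped the primed range and passed the test at 1.21-fold (log2 0.28, SE 0.11, adjusted p = 0.047). That call was lost when any 1 of 5 single libraries was left out, primed K1, K2, or K3 or TL2i replicate 2 or 3 (adjusted p from 0.084 to 0.17). For NHSM-v, 4i/L/b, t2iLGöY, and LCDM (EPS) cells the 95% intervals were -0.14 to 0.32, -0.13 to 0.32, -0.11 to 0.40, and -0.07 to 0.38 on the log2 scale. Against the primed libraries of letter J alone the first 3 of these estimates turned to -0.02, -0.03, and -0.01.

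GLI3, the main repressor among the GLI proteins, separated most protocols from primed cells. It was 18.6 to 47.1 CPM in primed libraries with a median of 35.5. TL2i libraries held 444, 408, and 433 CPM, 4i/L/b libraries 359, 360, and 374 CPM, and NHSM-v libraries 344, 346, and 357 CPM. In t2iLGöY libraries it was 295, 303, and 254 CPM, and in LCDM (EPS) libraries 225, 232, and 244 CPM. None of these 15 libraries came near the primed range.

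GLI3 rose 12.2-fold in TL2i (adjusted p = 3.1e-09) and 10.1-fold in 4i/L/b cells (6.1e-09). The rise was 6.68-fold in LCDM (EPS) (3.3e-08), 8.27-fold in t2iLGöY (5.5e-09), and 9.80-fold in NHSM-v cells (1.2e-09). No 2 neighbours in the order of these 5 groups were called different in the common fit (adjusted p from 0.18 to 0.82). TL-CDK8i libraries, at 112, 80.6, and 63.3 CPM, rose 2.36-fold (log2 1.24, SE 0.23, adjusted p = 0.00058). E-NHSM libraries, at 52.1, 49.0, and 45.2 CPM, overlapped the highest primed library and did not pass (log2 0.48, SE 0.21, adjusted p = 0.11), though the common fit of 27 libraries called them higher (adjusted p = 0.02).

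GLI2, the main activator, moved less and mostly downward. Primed libraries ranged from 75.6 to 108 CPM with a median of 100. TL2i libraries held 42.6, 46.0, and 47.2 CPM, TL-CDK8i libraries 50.1, 49.8, and 48.1 CPM, and 4i/L/b libraries 63.0, 65.8, and 58.8 CPM. All 9 lay below the primed range, with falls by 1.08 (SE 0.13, adjusted p = 9.6e-06), 1.00 (SE 0.13, adjusted p = 2e-05), and 0.65 (SE 0.12, adjusted p = 0.00047) on the log2 scale. NHSM-v libraries, at 119, 149, and 157 CPM, lay above it, a 1.46-fold rise (log2 0.55, SE 0.13, adjusted p = 0.0016).

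E-NHSM libraries, at 79.1, 60.3, and 59.2 CPM of GLI2, and t2iLGöY libraries, at 67.1, 61.2, and 83.4 CPM, overlapped the lowest primed values. They were called lower by 0.53 (SE 0.14, adjusted p = 0.0077) and 0.41 (SE 0.14, adjusted p = 0.023). The first call was lost without E-NHSM replicate 2 or 3 (adjusted p = 0.057 and 0.063) and the other without t2iLGöY replicate 1 or 2 (0.084 and 0.12). LCDM (EPS) libraries, at 92.1, 92.1, and 101 CPM, lay inside the primed range (log2 0.00, 95% interval -0.26 to 0.25, adjusted p = 0.98).

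**Figure D3:**
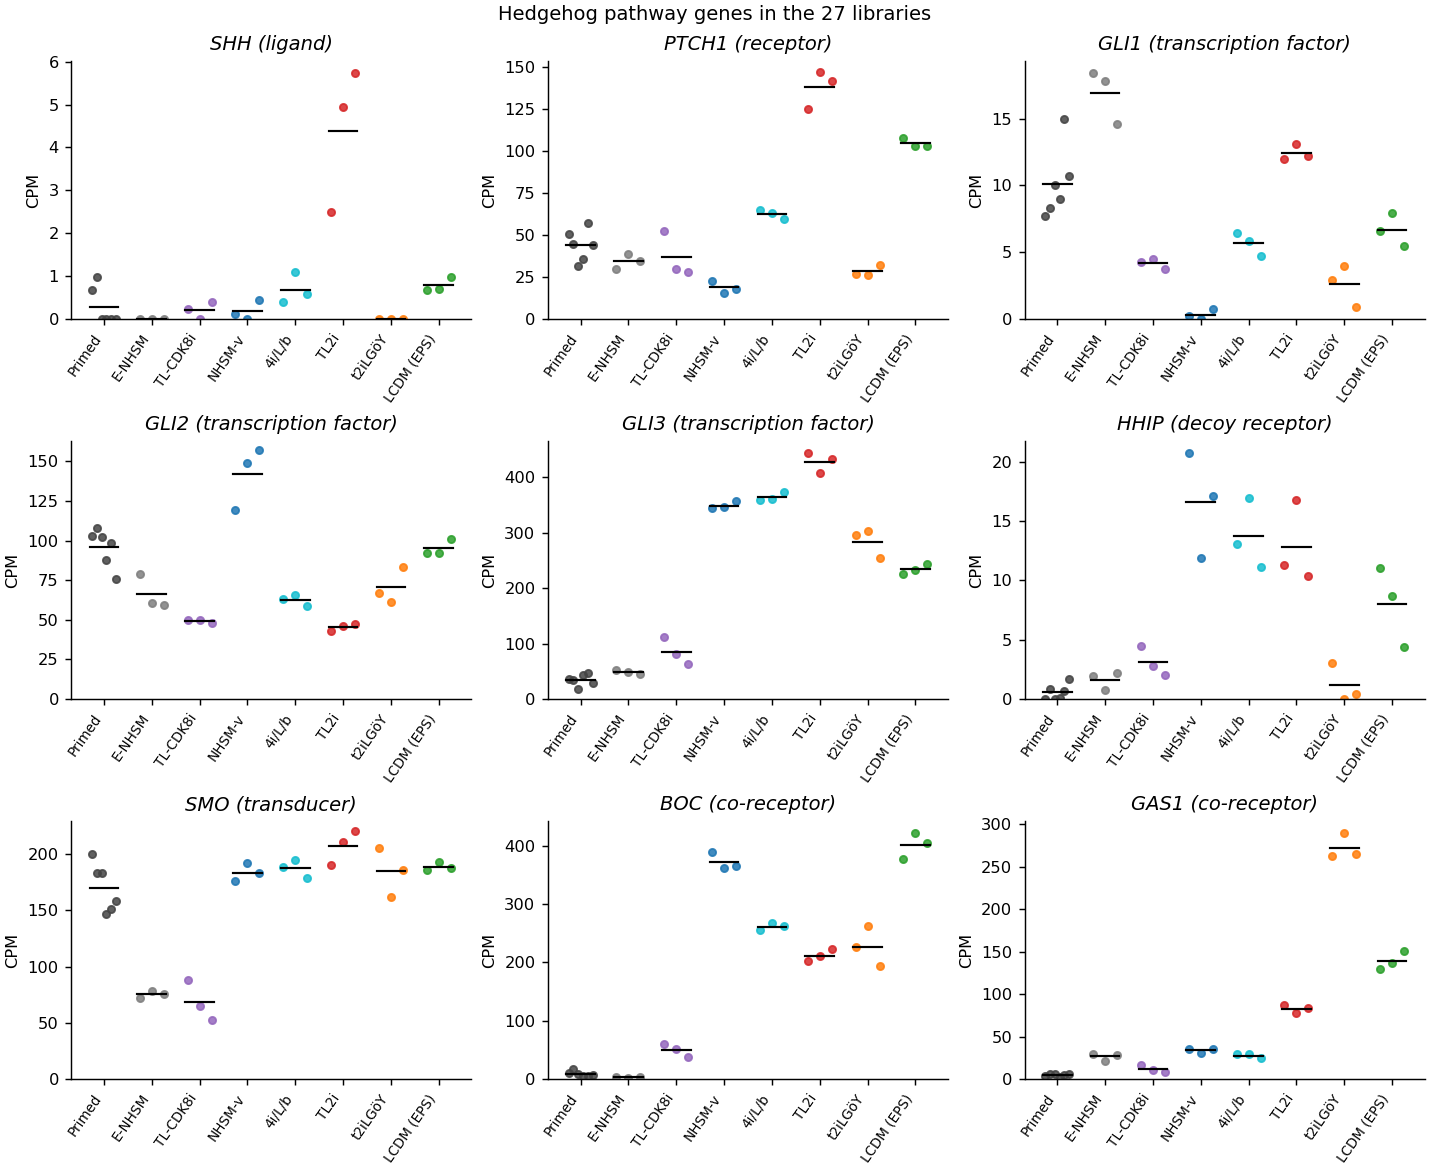
CPM of each gene (vertical axes, each with its own scale) in 6 primed libraries and 3 libraries of each protocol, with a point per library and a line at the group mean. GLI3 and BOC are high in LCDM (EPS), TL2i, NHSM-v, t2iLGöY, and 4i/L/b libraries, SMO is low in E-NHSM and TL-CDK8i libraries, and SHH is above 1.09 CPM in TL2i libraries alone.

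The ratio of GLI3 to GLI2 counts within a library does not depend on scaling between libraries, though it carries the fixed ratio of the lengths of the 2 transcripts. It was chosen after the levels had been seen. In primed libraries it ranged from 0.183 to 0.491 with a median of 0.371. The medians were 0.764 in E-NHSM, 1.62 in TL-CDK8i, 2.32 in NHSM-v, and 2.44 in LCDM (EPS) libraries, and higher in TL2i (9.18), 4i/L/b (5.69), and t2iLGöY libraries (4.39). The lowest E-NHSM library, at 0.659, exceeded the highest primed one, so no protocol overlapped primed cells. No test is given for it, since it was picked for these levels.

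**Figure D4:**
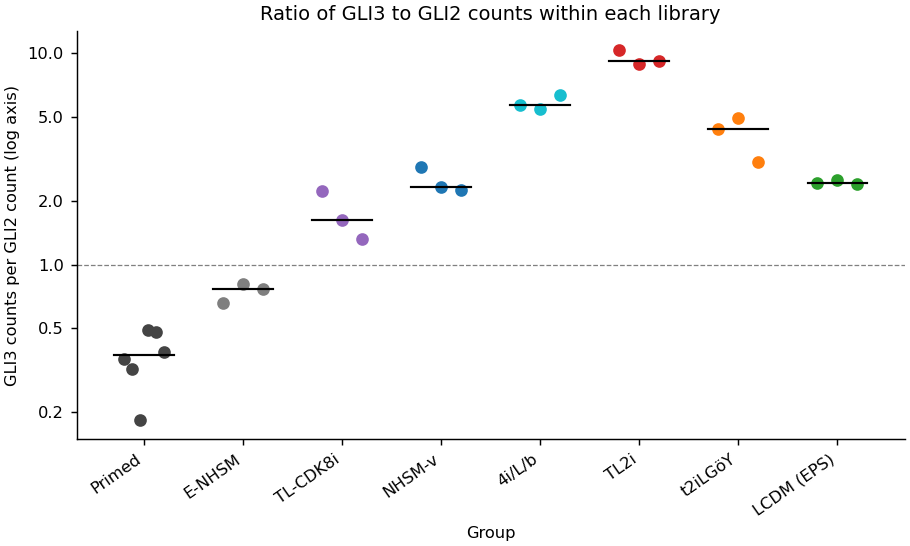
GLI3 counts per GLI2 count in each library (vertical log axis) by group, with lines at the group medians. The 6 primed libraries lie between 0.183 and 0.491, below all 21 libraries of the protocols, and the TL2i libraries lie highest, between 8.87 and 10.4.

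Between the protocols themselves, all 27 libraries were fitted together and each of the 21 pairs of protocols was tested. Of 189 tests of a member in a pair, 126 were called (66.7%), against 46.3% of the tests over all genes. GAS1 differed in 18 pairs, PTCH1 and GLI2 in 17 each, BOC in 16, GLI3 in 15, GLI1 in 13, HHIP in 11, SMO in 10, and SHH in 9. The pairs share libraries, and the SHH calls include those against E-NHSM and t2iLGöY libraries with no read. SHH and HHIP passed the filter on low counts mainly through libraries where they are high. Their calls, and the share of 66.7% that includes them, are therefore a description.

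TL-CDK8i and TL2i both activate STAT3-ERT2 with tamoxifen and differ in their kinase inhibitors, and in that comparison the members went one way. Of the 9, 8 were lower in TL-CDK8i cells and 0 higher, where 33.3% of all genes were lower, 31.5% higher, and 64.9% changed. Their median log2 difference, TL-CDK8i minus TL2i, was -2.09, against -0.04 over all genes tested. SHH was 20.1-fold lower (log2 -4.33, SE 0.64, adjusted p = 4.3e-05, or -5.18 without TL-CDK8i replicate 3), with 0 to 0.387 CPM against 2.50 to 5.73 CPM. It passed the filter on low counts here through the TL2i libraries, where it is high. Its place among the 8 lower members and in the median is therefore a description.

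The largest difference after SHH was in GAS1, 7.45-fold lower in TL-CDK8i cells (log2 -2.90, SE 0.19, adjusted p = 2e-08). GLI3 was 5.13-fold lower (3.8e-08), BOC 4.35-fold (2.9e-08), HHIP 4.27-fold (3.4e-05), PTCH1 3.85-fold (8.7e-07), SMO 3.09-fold (7e-07), and GLI1 3.06-fold (1.2e-05). The ranges of the 2 protocols did not overlap for any of these. GLI2 was the member not called (log2 0.09, 95% interval -0.12 to 0.31, adjusted p = 0.43), although the TL-CDK8i libraries, from 48.1 CPM, lay just above the TL2i libraries, up to 47.2 CPM. Fibroblast and mesenchyme markers moved with this comparison, summing to 8840 to 11400 CPM in TL-CDK8i and 2980 to 5790 CPM in TL2i libraries. In TL-CDK8i cells 6 of 10 of these markers were higher and 1 lower, 6 of 7 pluripotency markers were higher, and 6 of 8 neural markers were lower with 2 higher. Of 5 trophoblast markers 4 were lower and 1 higher, of 5 endoderm markers 3 were lower and 2 higher, and of the 10 dorsal neural tube genes tested 9 were lower. The part of these cell types in the differences was not tested.

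The other genes of the pathway were counted in lists. Over all genes tested, 11.1% were higher and 15.1% lower in E-NHSM cells, and 22.3% and 23.8% in TL-CDK8i cells. In the rest, 25.6% to 28.2% were higher and 25.2% to 30.6% lower, and the counts of each list are to be read against these shares. Of 7 genes for ligands and their release, DISP1, which frees lipid-bound ligand from the cell, was lower in 6 protocols, between -1.65 in TL-CDK8i and -0.54 in t2iLGöY cells on the log2 scale, and was not called in E-NHSM cells (-0.16). HHAT, which attaches palmitate to the ligand, rose in the same 6, between 2.03 and 2.93. SCUBE3, a secreted protein of the family that carries released ligand, rose in these 6 too, up to 3.95 in 4i/L/b cells, and fell by 1.55 in E-NHSM cells. IHH, another ligand, had no read in any primed or t2iLGöY library and reached 12.1 ± 3.62 CPM (SD, n = 3) in TL2i and 7.73 ± 0.932 CPM in 4i/L/b cells. The counts of this list were 5 higher and 1 lower in TL2i and in LCDM (EPS) cells, 4 and 1 in 4i/L/b and t2iLGöY cells, 2 and 1 in NHSM-v and TL-CDK8i cells, and 0 and 1 in E-NHSM cells. Its fitted median was 4.02 in LCDM (EPS) cells, or 2.05 with genes of 3 or fewer reads per library in a group set to the bound that this allows, and 3.69 by either way in TL2i cells. Between 4 and 6 of the 7 genes were tested, and some of them, IHH included, passed the filter only through the libraries where they are high, so the counts are a description.

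Among 5 receptors and surface regulators, CDON, the third co-receptor, rose in 6 protocols, from 0.43 in TL-CDK8i to 2.89 in NHSM-v cells on the log2 scale. LRP2, an endocytic receptor that takes up SHH in the forebrain, rose in the same 6, from 2.70 in TL-CDK8i to 6.21 in t2iLGöY cells. The counts were 4 higher and 0 lower in 4i/L/b and TL2i cells, 3 and 0 in NHSM-v and t2iLGöY cells, 3 and 1 in TL-CDK8i and LCDM (EPS) cells, and 1 and 1 in E-NHSM cells, with medians from 0.07 in E-NHSM to 2.54 in TL2i cells.

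Of 20 regulators of SMO and GLI proteins, 19 were found. They were 14 higher and 2 lower in t2iLGöY, 14 and 1 in LCDM (EPS), 12 and 1 in NHSM-v, 13 and 2 in 4i/L/b, 9 and 3 in TL2i, 9 and 3 in TL-CDK8i, and 0 and 5 in E-NHSM cells. The list medians lay between -0.07 in E-NHSM and 0.68 in LCDM (EPS) cells. SUFU, which holds GLI proteins in the cytoplasm, rose in the 6 protocols other than E-NHSM, between 0.96 and 1.59. GPR161, a ciliary receptor that favours the GLI3 repressor, rose in 5 protocols, between 1.67 in TL2i and 3.25 in NHSM-v cells, and was -0.08 in TL-CDK8i and 0.01 in E-NHSM cells, neither called. KIF7, a ciliary motor that acts on GLI proteins, fell in 5, between -0.99 and -0.44, and was not called in NHSM-v (-0.19) or E-NHSM (0.12) cells.

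Of 10 genes of the primary cilium, the structure in which the signal is passed on, 8 rose and 0 fell in TL2i cells, 6 and 0 in t2iLGöY, 6 and 1 in TL-CDK8i, 5 and 0 in LCDM (EPS), 3 and 2 in NHSM-v, 5 and 1 in 4i/L/b, and 1 and 0 in E-NHSM cells, with medians from 0.16 to 0.56. Over all genes 50.7% changed in TL2i, 54.3% in t2iLGöY, 46.1% in TL-CDK8i, and 57.1% in LCDM (EPS) cells. The shares were 58.6% in NHSM-v, 55.6% in 4i/L/b, and 26.2% in E-NHSM cells. The cilium genes changed did not exceed these shares in LCDM (EPS), NHSM-v, and E-NHSM cells, and were near them in t2iLGöY and 4i/L/b cells. KIF3A, a motor of intraflagellar transport, rose in the 6 protocols other than E-NHSM, between 0.85 and 2.19. The other 6 zinc-finger genes related to GLI were split. ZIC2 fell in all 7 protocols, between -2.16 and -0.71, and GLIS3 rose in 6, between 2.09 and 6.51.

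**Figure D5:**
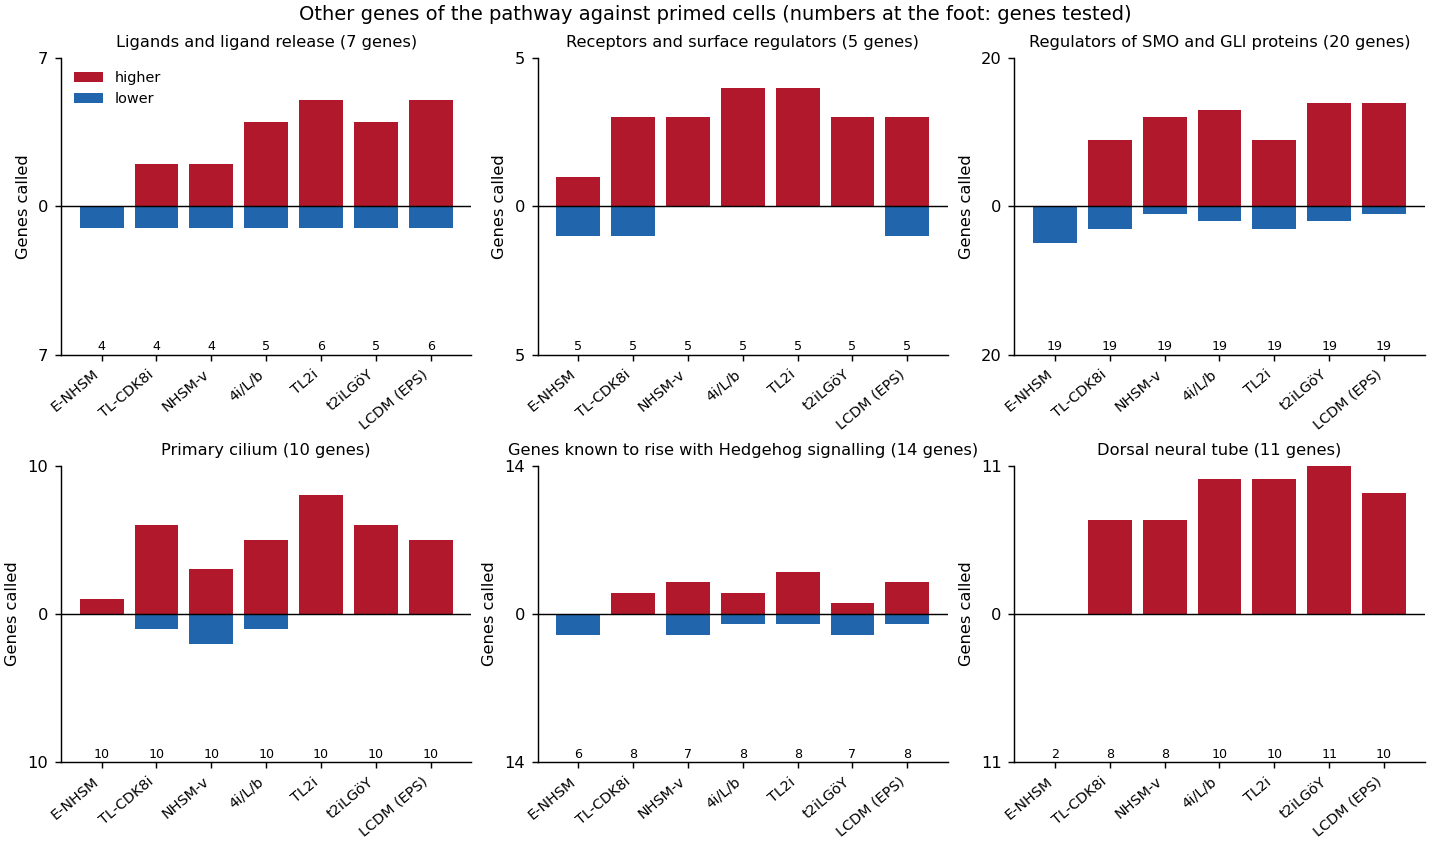
Number of genes called higher (red, upward) and lower (blue, downward) than in primed cells in each protocol for 6 lists, with the number tested at the foot of each column and the axis spanning the whole list. The dorsal neural tube panel rises to 11 of 11 genes in t2iLGöY cells, and the panel of genes that rise with Hedgehog signalling reaches at most 4 of 14.

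Of 14 genes known to rise with Hedgehog signalling in one tissue or another, 6 to 8 were tested in each protocol. The counts were 4 higher and 1 lower in TL2i, 3 and 1 in LCDM (EPS), 3 and 2 in NHSM-v, 2 and 1 in 4i/L/b, 2 and 0 in TL-CDK8i, 1 and 2 in t2iLGöY, and 0 and 2 in E-NHSM cells, with medians from -1.67 in E-NHSM to 0.76 in 4i/L/b cells. Over all genes 26.6% were higher in 4i/L/b, 22.3% in TL-CDK8i, 27.1% in t2iLGöY, and 11.1% in E-NHSM cells. The counts higher in these protocols were near or under those shares. CCND1, a G1 cyclin, rose in 5 protocols, between 0.59 and 1.67, and fell in E-NHSM cells (-0.61). MYCN fell in 5, between -2.93 and -0.89, and rose in TL-CDK8i (0.81) and TL2i (0.68) cells. Both respond to other pathways too. NKX2-1, NKX2-2, NKX6-2, and FOXF1 had no read in primed libraries, stayed under 1 CPM on average in every protocol, and were tested in none.

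Markers of neural tube regions, which the pathway patterns, differed by side. NKX6-1, of the ventral side, was at 3.95 CPM in TL2i and 2.49 CPM in LCDM (EPS) cells with no read in primed cells, and OLIG2 reached 10.8 CPM in LCDM (EPS) cells. Of 8 ventral genes at most 3 passed the filter in any protocol. Of 11 dorsal genes, the number called higher was 11 in t2iLGöY, 10 in 4i/L/b and TL2i, 9 in LCDM (EPS), 7 in NHSM-v and TL-CDK8i, and 0 in E-NHSM cells, with 0 lower throughout. Several of them passed the filter only through the libraries in which they are high, so these counts are a description.

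PAX3, a dorsal transcription factor, was 1.79 CPM in primed cells on average and 182 CPM in NHSM-v, 189 CPM in t2iLGöY, and 200 CPM in LCDM (EPS) cells. WNT1, a ligand of the dorsal midline, was 0.396 CPM in primed and 668 CPM in t2iLGöY cells. The fitted median of the dorsal genes tested was 9.51 in t2iLGöY, 7.81 in TL2i, and 4.62 in TL-CDK8i cells on the log2 scale, and with the same bound for genes near 0 it was 6.87, 6.70, and 3.96.

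Markers of other cell types moved with these groups. Over all genes, 11.1% were higher in E-NHSM, 22.3% in TL-CDK8i, and 25.6% to 28.2% in the rest. The shares lower were 15.1% in E-NHSM, 23.8% in TL-CDK8i, and 25.2% to 30.6% in the rest. Of 8 markers of neural progenitors and neurons, 8 were higher than in primed cells in LCDM (EPS), 7 in t2iLGöY and NHSM-v, 6 in 4i/L/b, 5 in TL2i, 3 in TL-CDK8i, and 1 in E-NHSM cells. The number lower was 1 in each of t2iLGöY, NHSM-v, TL-CDK8i, and E-NHSM cells, and 0 in the other protocols. They summed to 2340 to 2650 CPM in primed, 3800 to 4140 CPM in t2iLGöY, and 6320 to 6560 CPM in LCDM (EPS) libraries, and to 1320 to 1470 CPM in E-NHSM libraries. NES was the largest part of these sums, at 2430 CPM in primed, 1850 CPM in t2iLGöY, 3090 CPM in LCDM (EPS), and 1290 CPM in E-NHSM cells. Of 10 fibroblast and mesenchyme markers, 8 were higher in NHSM-v, 7 in 4i/L/b, TL2i, and TL-CDK8i, 3 in t2iLGöY, 2 in LCDM (EPS), and 1 in E-NHSM cells. They summed to 1160 to 2520 CPM in primed, 11700 to 15200 CPM in 4i/L/b, 8030 to 8600 CPM in NHSM-v, 3460 to 4080 CPM in t2iLGöY, 789 to 1030 CPM in LCDM (EPS), and 458 to 497 CPM in E-NHSM libraries. COL1A1 was the largest part of these sums in all but E-NHSM cells, at 9230 CPM in 4i/L/b and 6370 CPM in NHSM-v cells. LUM and DCN, of this list, had no read in primed, E-NHSM, or t2iLGöY libraries. In t2iLGöY cells COL1A1 (2.48-fold), COL3A1, and PDGFRB (1.42-fold) were higher, while COL1A2 and THY1 were lower (-0.53 and -2.41 on the log2 scale).

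Of 5 endoderm markers, 4 were higher and 1 lower than in primed cells in TL2i cells. At most 2 were higher and at most 1 lower in any other protocol. Their sum was 12.0 to 19.0 CPM in primed, 64.2 to 91.1 CPM in TL2i, and 123 to 143 CPM in LCDM (EPS) libraries, and 6.97 to 9.63 CPM in E-NHSM libraries. In the 4 remaining protocols it lay between 40.8 and 72.8 CPM. CXCR4 made up most of the LCDM (EPS) sum, at 127 CPM, with SOX17 at 0.516 CPM and AFP at 0.0495 CPM. Of 5 trophoblast markers, 4 were higher and 0 lower in TL2i cells, 2 were higher in TL-CDK8i cells, and at most 1 in any other protocol. The number lower was 2 in E-NHSM cells and 1 in each of 4i/L/b, t2iLGöY, and LCDM (EPS) cells. Their sum was 3.59 to 14.7 CPM in primed, 106 to 110 CPM in TL2i, 146 to 232 CPM in TL-CDK8i, 172 to 189 CPM in LCDM (EPS), and 111 to 163 CPM in t2iLGöY libraries. TFAP2A made up most of the trophoblast sum in LCDM (EPS) (181 CPM) and t2iLGöY cells (134 CPM), with CDX2 and KRT7 at 0 in both. KRT7, at 162 CPM, made up most of that sum in TL-CDK8i cells. SOX17, an endoderm transcription factor, averaged 22.2 CPM in TL2i and 0.428 CPM in primed cells, and TFAP2A, of the trophoblast list, 82 and 3.37 CPM. The part of these cell types in the levels of the Hedgehog genes was not tested.

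For each member the genes with the most similar pattern over the 27 libraries were found by Pearson's correlation of log2 CPM. The libraries fall into 8 groups and those of a group share a protocol, so the values are descriptions. BOC was most like IGFBPL1 (0.982) and ZFHX3 (0.976), and GLI3 was most like AXIN2 (0.975) and SHANK1 (0.968). By Spearman's correlation none of these genes was among the 2 most similar to its member. AXIN2 averaged 7.04 CPM in primed, 22.8 CPM in E-NHSM, 60.4 CPM in TL-CDK8i, and 146 to 385 CPM in the other protocols. PTCH1 was most like CENPE (0.941) and SMC5 (0.897), SMO like DGCR8 (0.938) and LY6G5B (0.912), and GAS1 like AP3M2 (0.921) and WSCD1 (0.912). CENPE was at 566 CPM in TL2i cells, its highest mean, and 176 CPM in NHSM-v cells, its lowest.

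GLI1 was most like NELL2 (0.915) and GPR19 (0.899), GLI2 like DBNL (0.893) and MARK2 (0.876), and HHIP like NDOR1 (0.877) and PALMD (0.856). SHH, with few reads, was most like MAB21L3 (0.850), itself at 1.23 CPM or less on average, and FAM122B (0.824). By Spearman's correlation 6 of these 18 genes stayed among the 2 most similar.

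The primed columns carry the letters J and K, with 3 libraries each. No member was called between them by edgeR (0 of 7 tested, where 3.73% of 12559 genes were called), while 2 had an unadjusted p under 0.05 and DESeq2 called 1, SMO. The nearest were SMO, 189 against 152 CPM (log2 difference, K minus J, -0.32, adjusted p = 0.09), and BOC, 12.1 against 5.78 CPM (-1.08, adjusted p = 0.18). SHH was found in 2 of 3 J libraries and in 0 of 3 K libraries.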

How the data were processed

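Directional mRNA libraries of 27 rhesus PSC samples were sequenced as single reads. The submitters' processing notes name bcl2fastq, cutadapt, HISAT2, and HTSeq, while versions, genome build, annotation, and the strand setting are not given in the sources used here. Reads shared between GLI paralogs or between a gene and an overlapping antisense gene could therefore not be assessed, and no positions are printed. The deposited values are raw counts for each gene symbol, with libraries in separate columns and no normalization or pooling by the authors. All columns were assigned by name (0 left over). Primed columns show the group only.

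In R 4.3.3 with edgeR 4.0.16, TMM scaling, CPM, filterByExpr, and the quasi-likelihood test were run on whole tables, each comparison on its own libraries, with Benjamini-Hochberg adjustment over all genes kept and a threshold of 0.05. SE and 95% intervals were derived from the log2 fold change, the F value, and edgeR's total degrees of freedom, the residual plus the prior ones. Differences between protocols and neighbours in the order of levels were tested in 1 fit of all 27 libraries. Pearson's correlation used a prior count of 2. The scripts were tested on simulated counts.

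The 9 members, all described, and the pathway and marker lists (120 of 122 symbols found) were chosen with earlier results of these data known. Other genes were named as examples of lists or as the 2 most correlated per member, 1 gene counted in the lists is not reported here by itself, and K against J and the GLI ratio were added after seeing the data. Replicates were checked for duplicate deposits, and all 36 pairs differed by more than sampling noise (chi-square of 3.98 to 29.8 per gene). Alternatives were DESeq2 1.42.0, upper-quartile scaling, no filter, a minimum absolute log2 fold change of 1, 1 common fit, primed J or K only, a replicate block, and each library left out in turn. Depth was 7111886 to 20760914 counts per library, and a count of 0 allows up to 3 counts.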

Additional observations from a re-analysis of the deposited data

Results flagged for a closer look

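For PTCH1, GLI2, SMO, and BOC, protocols moved to opposite sides of primed cells, and the difference between the extreme protocols was itself tested in 1 fit of all 27 libraries by edgeR's quasi-likelihood test. The protocols compared were picked from these same counts for their opposite directions, so the p-values are a description and give no independent support.

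PTCH1 was 2.88 higher on the log2 scale in TL2i than in NHSM-v cells (adjusted p = 1.6e-12), with all 3 TL2i libraries at 125 to 147 CPM and all 3 NHSM-v libraries at 15.6 to 22.7 CPM. GLI2 went the other way between the same protocols, 1.65 higher in NHSM-v than in TL2i cells (adjusted p = 3.9e-11), at 119 to 157 CPM against 42.6 to 47.2 CPM. SMO was 1.60 higher in TL2i than in TL-CDK8i cells (adjusted p = 3.5e-11), at 190 to 221 CPM against 52.8 to 88.3 CPM. BOC was 6.81 higher in LCDM (EPS) than in E-NHSM cells (adjusted p = 1.6e-18), at 377 to 421 CPM against 2.39 to 4.24 CPM. The fall of BOC in E-NHSM cells and the rise of SMO in TL2i cells against primed cells were each lost without single libraries, while the ranges of the protocols compared here did not overlap. Of the 6 primed libraries, 0 stood apart from the others for any member by Dixon's criterion.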

How the results depend on the processing

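Of 66 tests of a member in a comparison, 51 were called, of which 41 kept their call under every alternative other than the minimum fold change and 10 lost it under at least 1, and 9 of the 15 others were called under at least 1. The number of members called in E-NHSM cells was 4, and it was 2 without E-NHSM replicate 2 or 3 (2 to 5 with single libraries left out). In 4i/L/b cells it was 7, and 4 with a minimum absolute log2 fold change of 1. In LCDM (EPS) cells it was 5, and 8 against the primed libraries of letter K alone, where SHH, GLI1, and SMO were added. SHH had no read in the K libraries and passed the filter there through the LCDM (EPS) libraries, so its call is a description. SMO, not called, turned from higher to -0.02 in NHSM-v, -0.03 in 4i/L/b, and -0.01 in t2iLGöY cells against letter J alone. HHIP in t2iLGöY cells, not called, ranged from -1.31 to 1.65 with single libraries left out, the lowest without replicate 1. The causes were not tested. With a replicate block, 8 members were called between TL-CDK8i and TL2i, as without it, and 138 tests in pairs of protocols, against 139 on the same 21 libraries without the block. Same-numbered libraries of different protocols did not deviate together (r from -0.127 to 0.064 over 63 pairs), so the numbers were not taken to pair them. No paired analysis was possible against primed cells because their columns carry letters that the labels do not tie to replicate numbers. SHH, HHIP, and GLI1 rest on at most 19 reads per library in at least 1 group, and small differences in them were not detectable at this depth.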
